A study of Mus musculus with 6 samples.

Results

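The genes described here are surface proteins by which mouse hematopoietic stem cells (HSCs) are sorted or graded: Kit, Procr, Ly6a, Slamf1, Cd48, Cd34, Cd27 and Esam. They were chosen by name, as rows of the deposited gene table whose gene name matched a list of 9 names. The table held 8 of the 9 names, among 19978 genes in all; the ninth, Cd150, is listed by RefSeq as a synonym of Slamf1, so it adds no further gene. RNA came from bone marrow cells sorted as HSCs, 100 cells per sample, in 3 samples labelled Piezo1 cKO (a conditional knockout of the mechanically gated channel gene Piezo1) and 3 samples labelled WT. The labels give no strain, age, sex, Cre driver, deleted exons, sort markers or number of mice, so each p reflects the spread among these 6 samples alone, and that spread could be technical.

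In mouse bone marrow, HSCs are usually gated as cells without mature lineage markers that carry the KIT receptor and the LY6A protein (Sca-1). They are then narrowed by SLAM family receptors, with CD150 (Slamf1) present and CD48 absent. PROCR (EPCR) and ESAM enrich for HSCs further, while CD34 is low on the most quiescent HSCs of adult mice and rises on their progeny. KIT is the receptor of stem cell factor and the only receptor tyrosine kinase among the 8 markers, and CD27 is a receptor of the TNF receptor family.

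Targeting of Piezo1 did not show in its own RNA. Piezo1 had an FPKM (fragments scaled to transcript length and library depth) of 0.175, 8.81 and 0.819 in the libraries labelled cKO 1, 2 and 3, against 0.539, 3.97 and 1.57 in WT 1, 2 and 3. The highest value was in a library labelled cKO, so each direction given here rests on the labels. Depth was also uneven. Total counts ranged between 31252820 and 72116120 in the labelled cKO libraries and between 3907259 (WT 3) and 64794532 (WT 2) in WT, with WT 1 at 18035239. The labelled cKO libraries each had 1773 to 3007 genes at 10 FPKM or more, and WT 1, 2 and 3 had 1006, 3304 and 868 such genes.

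The upstream sequences of 3 of the genes are given because their RNA patterns are compared most closely in what follows. Slamf1 and Cd27 reached an FPKM of 10 in the same pair of libraries, and Cd48 is the neighbour of Slamf1 on chromosome 1. Each is the 250 bases before RefSeq's start of the gene, 5′ to 3′ on the gene's strand, from RefSeq on GRCm38.p6. Entries for 6 of the 8 genes were matched by symbol. Slamf1 lies at chr1:171766882-171767131 (plus strand), Cd48 at chr1:171681742-171681991 (plus strand) and Cd27 at chr6:125237028-125237277 (minus strand). Capitals mark matches, on either strand, to letters typical of factors of blood cells: for GATA factors AGATAA as well as AGATAG, and TGATAA as well as TGATAG; for ETS factors AGGAAG as well as CGGAAG; for RUNX factors TGTGGT as well as TGCGGT.
Slamf1: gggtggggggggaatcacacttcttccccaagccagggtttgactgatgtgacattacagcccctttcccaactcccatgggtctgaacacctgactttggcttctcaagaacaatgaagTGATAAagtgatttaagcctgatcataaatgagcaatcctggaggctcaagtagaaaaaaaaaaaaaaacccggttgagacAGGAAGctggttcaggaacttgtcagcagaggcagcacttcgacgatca
Cd27: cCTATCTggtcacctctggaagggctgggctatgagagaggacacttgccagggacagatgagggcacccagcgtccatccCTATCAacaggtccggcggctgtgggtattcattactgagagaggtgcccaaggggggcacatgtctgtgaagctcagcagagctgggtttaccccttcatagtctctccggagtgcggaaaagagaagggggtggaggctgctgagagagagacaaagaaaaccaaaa
Cd48: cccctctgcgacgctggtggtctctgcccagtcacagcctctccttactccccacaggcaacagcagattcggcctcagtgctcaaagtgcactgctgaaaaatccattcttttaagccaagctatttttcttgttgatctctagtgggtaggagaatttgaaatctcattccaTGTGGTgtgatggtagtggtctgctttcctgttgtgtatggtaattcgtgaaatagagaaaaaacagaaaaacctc
The Slamf1 window held 1 GATA and 1 ETS match, the Cd27 window 2 GATA matches, and the Cd48 window 1 RUNX match, with 0 overlapping matches. Of 32851 windows of this length, 26.5% held a GATA match, 39.2% an ETS match and 18.6% a RUNX match. A match is a run of letters and not a shown binding site.

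No library had all 8 markers at an FPKM of 10, or at an FPKM of 1. The 8 include Cd48, which HSC gates exclude, and Cd34, whose protein is low on the most quiescent HSCs. At an FPKM of at least 10, labelled cKO 1 had 1 of the 8 markers, labelled cKO 2 had 4 and labelled cKO 3 had 2, against 1 in WT 1, 4 in WT 2 and 1 in WT 3. At an FPKM of at least 1, the labelled cKO libraries 1, 2 and 3 had 1, 4 and 3 of the markers, against 2, 6 and 5 in WT 1, 2 and 3. In WT 3 the 5 markers at that level stood on 14 to 237 counts each. Ly6a was the marker that reached 10 in all 6. The second marker of labelled cKO 3 was Kit, the other 3 of labelled cKO 2 were Procr, Slamf1 and Cd27, and the other 3 of WT 2 were Cd48, Slamf1 and Cd27. Kit and Procr were never at that level in the same library. Over all genes, 6221 reached an FPKM of 10 in at least 1 library, and 3051 of them (49.0%) did so in exactly 1, as Kit, Procr and Cd48 did. A further 1360 (21.9%) did so in exactly 2, as Slamf1 and Cd27 did. Only 243 genes (3.91%) did so in all 6, as Ly6a did. Cd34 and Esam stayed below 10 throughout.

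**Figure D1:**
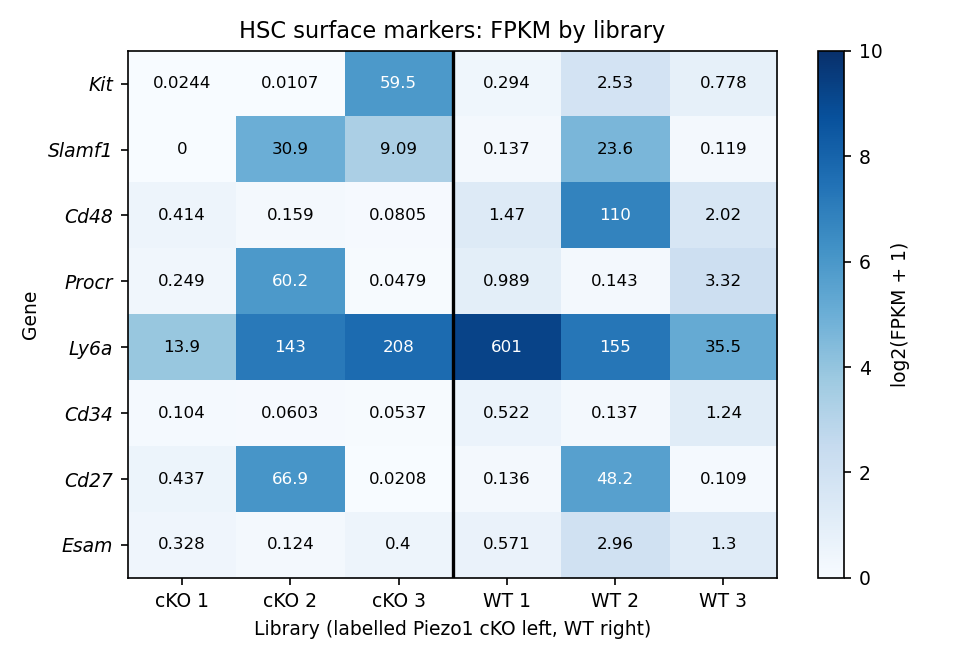
FPKM of the 8 markers in each library, labelled Piezo1 cKO at left and WT at right; the number in each cell is the FPKM and the shade is log2(FPKM + 1). Ly6a is at 13.9 or more in all 6 libraries, while each other marker reaches 10 in at most 2.

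The deposited counts, which are not scaled to depth, were split at 100. This cut was not planned, and no distinct gap lies there. The steps from 237 to 615 and from 1636 to 4352 counts are about as wide on a log scale as that from 90 to 237. Of the 48 values, 8 genes in 6 libraries, 32 were below 100 counts, none of them above 90, and 16 were at least 237. The labelled cKO libraries and the WT libraries each had 8 of the 24 possible values at 100 counts or more. No such share over all genes is given here. In each library, between 40.2% and 48.8% of all gene counts from 1 to 40 were multiples of 4, and the counting method is not stated, so the precision of low counts is uncertain. In bulk samples, fewer cells with a transcript and less RNA per cell cannot be told apart.

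**Figure D2:**
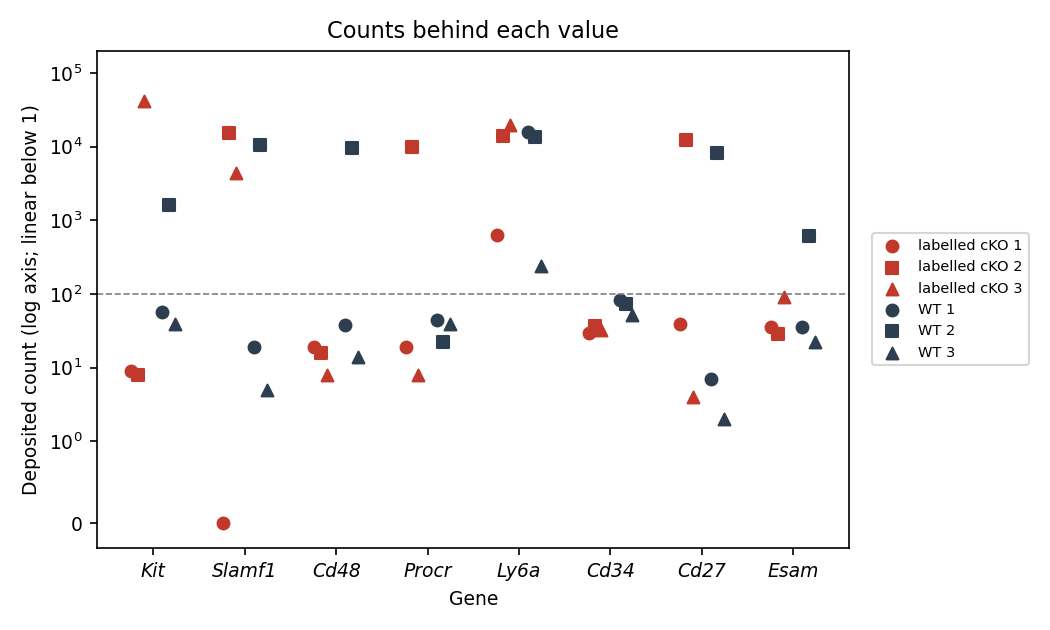
Deposited counts of each marker on a log axis (linear below 1); red symbols are labelled cKO libraries and dark symbols WT libraries, with the shape giving the replicate. The dashed line at 100 counts, an unplanned cut, lies between the values 90 and 237, and 32 of the 48 points are below it.

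Kit (ENSMUSG00000005672, chromosome 5, 75574916 to 75656722, plus strand), the receptor that defines the Kit-positive gate, was abundant in a single library. Its FPKM was 0.0244, 0.0107 and 59.5 in labelled cKO 1, 2 and 3, against 0.294, 2.53 and 0.778 in WT 1, 2 and 3. Labelled cKO 3 was the high library, with 41266 counts, while the other labelled cKO libraries had 9 and 8 counts and fell below all 3 WT libraries, so the genotypes overlapped. WT 2 had 1636 counts, and WT 1 and WT 3 had 57 and 39. Group means were 19.9 ± 34.4 in the labelled cKO and 1.202 ± 1.18 in WT (SD, n = 3 each). The difference in mean log2(FPKM + 1) was 0.98 (two-sided exact permutation test, p = 1; with 3 against 3 libraries no p under 0.1 can be reached). It was -0.98 without labelled cKO 3.

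Procr (ENSMUSG00000027611, chromosome 2, 155751117 to 155755471, plus strand), the endothelial protein C receptor, was likewise high in 1 library, but in another one. It had an FPKM of 0.249, 60.2 and 0.0479 in labelled cKO 1, 2 and 3, against 0.989, 0.143 and 3.32 in WT 1, 2 and 3. Labelled cKO 2 held 9745 counts and the other 5 libraries held 8 to 44, so the genotypes overlapped and the 3.32 of WT 3 stood on 39 counts. Means were 20.2 ± 34.7 in the labelled cKO and 1.49 ± 1.65 in WT (SD, n = 3 each; exact permutation p = 0.9). The difference in mean log2(FPKM + 1) was 1.01, and -0.90 without labelled cKO 2.

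Ly6a (ENSMUSG00000075602, chromosome 15, 74994877 to 74998031, minus strand), which encodes Sca-1, was the one marker at an FPKM of 10 or more in every library. It had an FPKM of 13.9, 143 and 208 in labelled cKO 1, 2 and 3, against 601, 155 and 35.5 in WT 1, 2 and 3. The lowest value was in labelled cKO 1 and the highest in WT 1, a 43.2-fold range (Cd34 and Esam, both low, had ranges of 23.1-fold and 23.8-fold), and the middle values of both genotypes lay close together. Means were 122 ± 98.9 in the labelled cKO and 264 ± 298 in WT (SD, n = 3 each; exact permutation p = 0.6). Its log2 fold change was -1.04 ± 2.30 (SE; edgeR quasi-likelihood test, adjusted p = 0.868), and it turned to 0.83 without WT 1 and to 0.17 with no filter on low values. Ly6a has close relatives in the Ly6 cluster, so the assignment of its reads is uncertain. Of the 8 Ly6 relatives in the table, Ly6e was also abundant in every library, with an FPKM of 107, 75.1 and 56.5 in labelled cKO 1, 2 and 3, against 46.6, 253 and 25.0 in WT 1, 2 and 3 (log2 fold change 0.01 ± 2.19, SE; edgeR, adjusted p = 0.999). Ly6c1 and Ly6d stood on 25 to 177 counts in each library, with log2 fold changes of -2.31 and -2.58 (edgeR, adjusted p = 0.734 and 0.730).

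Slamf1 (ENSMUSG00000015316, chromosome 1, 171767127 to 171801184, plus strand), the CD150 receptor, was present in 3 libraries and near absent in 3. Its FPKM was 0, 30.9 and 9.09 in labelled cKO 1, 2 and 3, against 0.137, 23.6 and 0.119 in WT 1, 2 and 3. The high libraries were labelled cKO 2, labelled cKO 3 and WT 2, so the genotypes overlapped. The 0 counts of labelled cKO 1 allow up to 3 counts, or 0.0960 CPM (library-scaled counts), for counting error only. The high libraries held 15171, 4352 and 10502 counts, and WT 1 and WT 3 held 19 and 5. Means were 13.3 ± 15.9 in the labelled cKO and 7.94 ± 13.5 in WT (SD, n = 3 each; exact permutation p = 0.7). In the edgeR fit Slamf1 had a log2 fold change of 1.28 ± 2.45 (SE; adjusted p = 0.850). The median over all 4173 genes tested in that fit was 1.10, so 1.28 is near the middle of the table. It turned to -0.43 without labelled cKO 2, and it was 6.79 without WT 2 (edgeR, adjusted p = 0.280).

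Cd48 (ENSMUSG00000015355, chromosome 1, 171682009 to 171705258, plus strand), a SLAM family protein that HSC gates exclude, lies 61868 bases before Slamf1 on the same strand. It had an FPKM of 0.414, 0.159 and 0.0805 in labelled cKO 1, 2 and 3, against 1.47, 110 and 2.02 in WT 1, 2 and 3. Each labelled cKO value lay below each WT value, and WT 2 alone was high. The counts were 19, 16 and 8 in labelled cKO 1, 2 and 3, against 38, 9458 and 14 in WT 1, 2 and 3. Means were 0.218 ± 0.174 in the labelled cKO and 37.8 ± 62.4 in WT (SD, n = 3 each; exact permutation p = 0.1, the smallest possible). In the edgeR fit Cd48 had a log2 fold change of -6.84 ± 2.62 (SE; unadjusted p = 0.00912, adjusted p = 0.692), which did not pass. Without WT 2 it was -2.66 (edgeR, adjusted p = 0.278). Cd48 was tested because all 3 WT libraries reached an FPKM of 1 and no labelled cKO library did, so passing the filter already required a difference.

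WT 2 therefore held RNA of both Slamf1 and Cd48, which HSC gates use in opposite senses, and labelled cKO 2 and 3 held Slamf1 with Cd48 at 0.159 and 0.0805. Elsewhere in the SLAM cluster of chromosome 1, Cd84, a further SLAM receptor, had 10.2 in labelled cKO 2, on 5104 counts, against 5.59 in WT 2, on 2541 counts, and 0.0562 or less in the other 4 libraries. The receptor genes Cd244a, Ly9, Slamf7 and Slamf6 were at 1.25 or less in all 6 libraries. Of 12 SLAM family and adaptor genes listed, 10 were in the table and 0 passed the filter.

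Cd27 (ENSMUSG00000030336, chromosome 6, 125232622 to 125237010, minus strand), a receptor whose ligand is CD70, was high in the same 2 libraries as Cd84. It had an FPKM of 0.437, 66.9 and 0.0208 in labelled cKO 1, 2 and 3, against 0.136, 48.2 and 0.109 in WT 1, 2 and 3. Labelled cKO 2 and WT 2 held 12414 and 8126 counts, and the other 4 libraries 2 to 39, so the genotypes overlapped. Means were 22.5 ± 38.5 in the labelled cKO and 16.1 ± 27.8 in WT (SD, n = 3 each; exact permutation p = 0.7). The difference in mean log2(FPKM + 1) was 0.23, and it was -1.71 when labelled cKO 2 was left out, -0.67 when WT 1 was and -0.69 when WT 3 was. In all, 287 genes had an FPKM of at least 10 in labelled cKO 2 and WT 2 and in no other library. The sets of Kit (labelled cKO 3 alone), Procr (labelled cKO 2 alone) and Cd48 (WT 2 alone) were shared by 750, 711 and 849 genes, counting the markers themselves.

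Cd34 (ENSMUSG00000016494, chromosome 1, 194938819 to 194961279, plus strand), the sialomucin that rises as HSCs become progenitors, was low in all libraries. It had an FPKM of 0.104, 0.0603 and 0.0537 in labelled cKO 1, 2 and 3, against 0.522, 0.137 and 1.24 in WT 1, 2 and 3. The labelled cKO values lay below the WT values, on 30, 37 and 32 counts against 84, 74 and 52 counts. Esam (ENSMUSG00000001946, chromosome 9, 37528078 to 37538319, plus strand), an adhesion molecule of endothelial junctions and HSCs, had 0.328, 0.124 and 0.400 in labelled cKO 1, 2 and 3, against 0.571, 2.96 and 1.30 in WT 1, 2 and 3. Esam too was lower in each labelled cKO library than in each WT library, with 36, 29 and 90 counts against 36, 615 and 22 counts. The exact permutation p was 0.1 for each of these genes, the smallest possible. Their differences in mean log2(FPKM + 1) were -0.55 for Cd34 and -0.93 for Esam.

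Cd48, Cd34 and Esam, 3 of the 8 markers, were thus the ones whose genotypes did not overlap, and all 3 were lower in the labelled cKO. Over all 19978 genes, 8.6% were lower without overlap and 1.87% were higher without overlap. Among the 4173 genes tested, the shares were 5.18% lower and 6.37% higher. Among the 4595 genes with their highest FPKM between 0.5 and 5, the range that holds Cd34 and Esam, 14.3% were lower in the labelled cKO without overlap. In those 4595 genes, WT 3, the library with the lowest total, was the highest library for 57.9%. Their median FPKM was 0.0981, 0.0310 and 0.0397 in labelled cKO 1, 2 and 3, against 0.242, 0.0665 and 0.739 in WT 1, 2 and 3, on median counts of 9 to 18. A few counts therefore gave a higher FPKM in WT 3 and WT 1 than elsewhere. The part of this in the low values of Cd34, Esam and Cd48 was not tested.

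In the fit across genes, 3 of the 8 markers passed the filter of an FPKM of at least 1 in at least 3 libraries, and 0 passed an adjusted p of 0.05 (edgeR quasi-likelihood test, Benjamini-Hochberg adjustment). Of the 4173 genes, 0% passed with edgeR, while DESeq2 called 298. At an unadjusted p under 0.05 there was 1 marker, Cd48, which was lower. Over the genes tested 3.47% were lower at that p and 3.4% higher. limma also called 0 markers, and DESeq2 did not call Slamf1 and gave no adjusted p to Cd48 and Ly6a. With counts simulated at 1 common spread estimated from these libraries, 0% of changes of 64-fold were recovered by edgeR. The spread of each marker can differ from that common value. The markers are thus not shown to be unchanged.

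With no filter, all 8 markers entered an edgeR fit over 19978 genes, of which 0.816% passed an adjusted p of 0.05 and 11.6% an unadjusted p of 0.05 in either direction. No marker did either. The log2 fold changes of the 5 markers left out by the filter were 5.42 ± 3.09 (SE) for Kit, 5.95 ± 3.47 (SE) for Procr, 1.98 ± 2.83 (SE) for Cd27, -1.21 ± 1.77 (SE) for Cd34 and -1.05 ± 1.92 (SE) for Esam, with adjusted p of 0.486, 0.496, 0.760, 0.767 and 0.827 (edgeR). Those of Kit and Procr rest on 1 library each.

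The genes with profiles most like those of the tested markers were sought by Pearson's r of log2(FPKM + 1) over the 6 libraries among 3287 genes, and none of the 3 nearest to each was on the lists of HSC markers. The 3 nearest to Slamf1 were Babam2, Mrpl51 and Stard4, with r of 1.000, 0.999 and 0.997. For Cd48 they were Ahcyl1, Dcxr and Rnf115, with r of 1.000, 0.999 and 0.999, and for Ly6a they were Immp1l, Atf4 and Snx14, with r of 0.997, 0.990 and 0.988. An r over 0.95 was reached by 274 genes for Slamf1, 49 for Cd48 and 41 for Ly6a. All values come from the same 6 libraries, and r is given as a description.

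Among cytokine receptors beyond Kit, Igf1r, the receptor of insulin-like growth factor 1, had an FPKM of 13.5, 10.3 and 15.5 in labelled cKO 1, 2 and 3, against 0.106, 18.4 and 0.166 in WT 1, 2 and 3. WT 2 was the highest and WT 1 and WT 3 the lowest, so the genotypes overlapped (log2 fold change 1.57 ± 2.40, SE; edgeR, adjusted p = 0.819). Il2rg, the shared gamma chain of lymphoid cytokine receptors, had 453, 159 and 46.3 in labelled cKO 1, 2 and 3, against 0.651, 4.42 and 4.22 in WT 1, 2 and 3. Its genotypes did not overlap (log2 fold change 6.66 ± 2.84, SE; edgeR, unadjusted p = 0.0192, adjusted p = 0.692). With DESeq2 it passed, at 6.23 ± 1.51 (SE, adjusted p = 0.00267). Tnfrsf1a, a TNF receptor, had 9.58, 64.5 and 0.0851 in labelled cKO 1, 2 and 3, against 1.80, 0.881 and 2.54 in WT 1, 2 and 3 (edgeR, adjusted p = 0.734).

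Of the 38 cytokine receptor genes listed, all in the table, 6 passed the filter. With edgeR 0 of the 6 passed the threshold and 1, Il2rg, had an unadjusted p under 0.05, while DESeq2 called Il2rg alone and gave no adjusted p to 2 others. Of all 4173 genes tested, DESeq2 called 298, and at an unadjusted edgeR p under 0.05 3.4% were higher and 3.47% lower. With 6 genes, 1 such gene is no result about the list. All 6 had a positive log2 fold change with a median of 2.47, against 67.9% positive and a median of 1.10 over all genes tested. With median-of-ratios scaling 5 of the 6 were positive, against 57.2% over all genes. Without labelled cKO 1 also 5 were, against 51.4%, with a median of 1.26 against 0.10 over all genes. The median of the 6 was 6.50 without WT 2, against 2.93 over all genes. The 6 tested genes are not all the receptors. Over the 38, 1 gene, Il2rg, was higher in the labelled cKO without overlap. Lower without overlap were 6, Csf3r, Il3ra, Il6st, Ifngr1, Tnfrsf1b and Cxcr4. Over all genes 1.87% were higher and 8.6% lower without overlap. Among genes with their highest FPKM between 0.5 and 5, 14.3% were lower without overlap. Of the 38, 18 stayed below an FPKM of 1 in every library. Il3ra had 0 counts in each labelled cKO library, against 4, 4 and 6 in WT 1, 2 and 3. Cxcr4 had 8, 12 and 8 counts in labelled cKO 1, 2 and 3, against 21, 28 and 8 in WT 1, 2 and 3. Flt3, the receptor of multipotent progenitors, had 31.3 in labelled cKO 1 and 0.0327 or less in each other library. Il6ra was high in labelled cKO 1 as well, at 25.3, and Csf2rb in labelled cKO 2, at 25.4, each with 0.398 or less elsewhere. Ifngr1, a receptor of interferon gamma, had at most 0.389 in the labelled cKO, against 0.888, 37.5 and 1.897 in WT 1, 2 and 3. The angiopoietin receptor gene Tek reached at most 1.00 and the chemokine receptor gene Cxcr4 at most 0.761, both in WT 3.

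**Figure D3:**
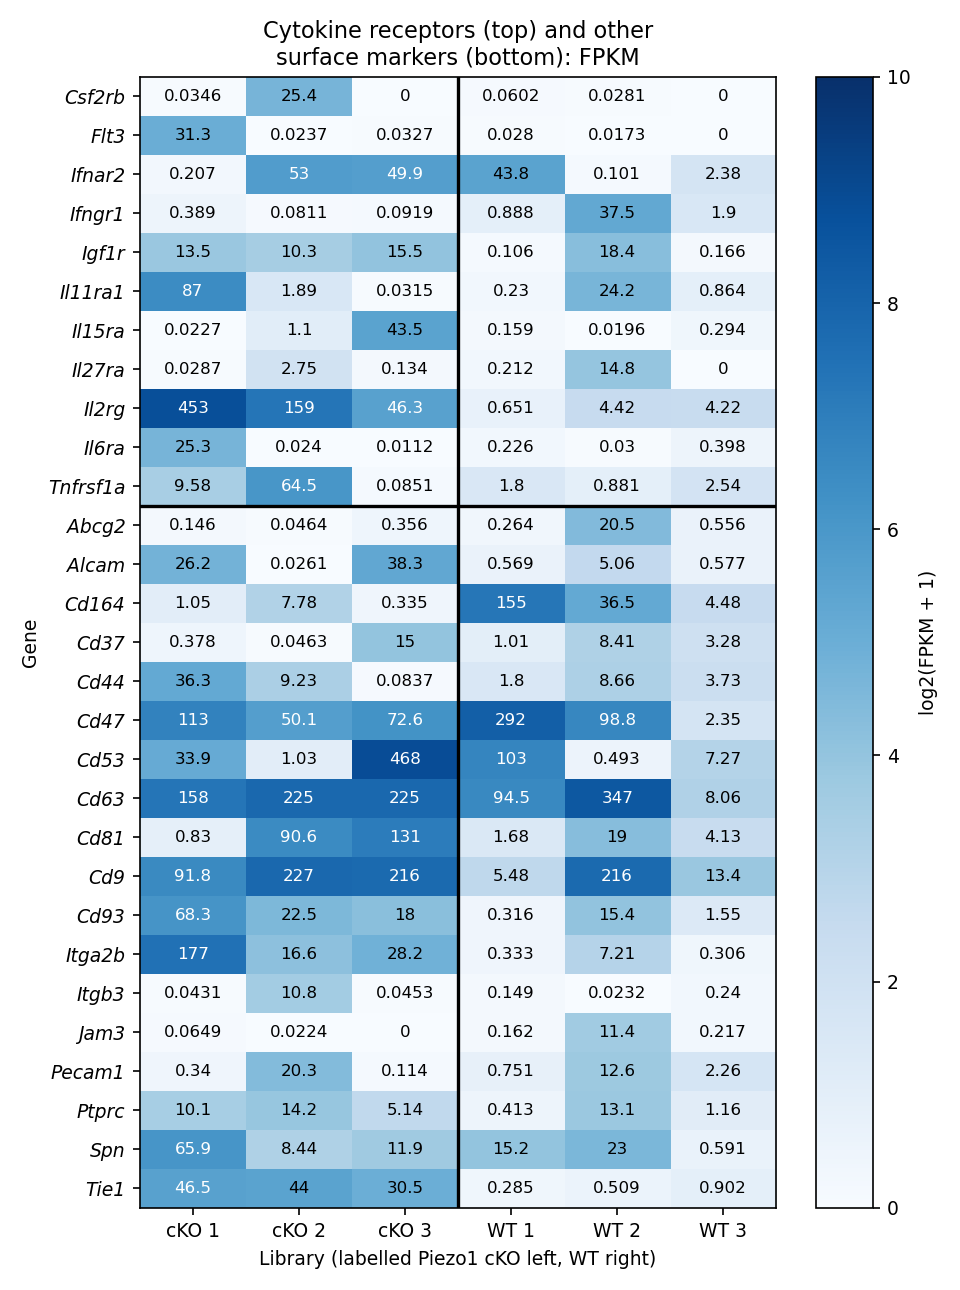
FPKM of cytokine receptors (top) and other surface markers (bottom) of the lists that reached 10 in at least 1 library, apart from genes not reported here, labelled Piezo1 cKO at left and WT at right; shade is log2(FPKM + 1). Igf1r is above 10 in labelled cKO 1, 2 and 3 and in WT 2, and below 1 in WT 1 and WT 3.

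Among other surface genes of HSCs, 19 of 34 listed reached an FPKM of 10 in at least 1 library. Over the 34, 4 were higher in the labelled cKO without overlap and 3 were lower without overlap. The shares were 1.87% and 8.6% over all genes, and 6.37% and 5.18% over the genes tested. Of the 4, Gprc5c stood on 5, 11 and 10 counts in labelled cKO 1, 2 and 3, against 0 in each WT library. Of the 3, Neo1 had an FPKM of at most 0.825. Of the 34, 17 passed the filter, 13 of them with a positive log2 fold change and a median of 1.53. Over all genes tested 67.9% were positive, with a median of 1.10. With edgeR 0 passed the threshold, and at an unadjusted p under 0.05 there were 1 higher (Tie1) and 1 lower. DESeq2 called 1, Tie1, and gave no adjusted p to 5. Of all 4173 genes tested, 3.4% were higher and 3.47% lower at that edgeR p, and DESeq2 called 298. Tie1, an endothelial and HSC receptor, had an FPKM of 46.5, 44.0 and 30.5 in labelled cKO 1, 2 and 3, against 0.285, 0.509 and 0.902 in WT 1, 2 and 3. These were 8552, 17229 and 11656 counts against 31, 182 and 25 counts, without overlap (log2 fold change 6.58 ± 3.07, SE; edgeR, unadjusted p = 0.0319, adjusted p = 0.692; DESeq2 5.46 ± 1.33, SE, adjusted p = 0.00291). Tie1 reached an FPKM of 1 in the 3 labelled cKO libraries and in no WT library, so, as for Cd48, passing the filter already required a difference, and neither p supports one. Itga2b, the CD41 integrin, had 177, 16.6 and 28.2 in labelled cKO 1, 2 and 3, against 0.333, 7.21 and 0.306 in WT 1, 2 and 3 (log2 fold change 5.33 ± 2.74, SE; edgeR, adjusted p = 0.692). The tetraspanin genes Cd9 and Cd63 were among the more widely detected, with Cd9 at 91.8, 227 and 216 in labelled cKO 1, 2 and 3, against 5.48, 216 and 13.4 in WT 1, 2 and 3.

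In a fit chosen after seeing the data, WT 2 was the sole WT library. There, 9 of the 17 other surface genes were positive, with a median of 0.03. The cytokine receptors there had 5 of 6 positive and a median of 2.96. Over all genes in that fit 59.4% were positive, with a median of 0.41. Without labelled cKO 1 the median of the 17 was 0.33, against 0.10 over all genes. Of the KIT and JAK-STAT signalling genes, 28 of 29 listed were in the table, 9 passed the filter, 5 were positive and 0 passed the threshold with edgeR (0 at an unadjusted p under 0.05) or DESeq2. Their median was 0.49, against 1.10 over all genes tested, of which 67.9% were positive. It turned to -0.34 with median-of-ratios scaling, against 0.52 over all genes, and to -1.67 without labelled cKO 1, against 0.10. It was -0.19 without labelled cKO 3 and -0.07 without WT 3, each against 0.74 over all genes. Socs3, a feedback inhibitor of cytokine signalling, had 0.285, 7.67 and 4.32 in labelled cKO 1, 2 and 3, against 118, 2.11 and 1.53 in WT 1, 2 and 3. Cish, a target of STAT5, had 0.0551, 29.2 and 23.2 in labelled cKO 1, 2 and 3, against 0.231, 11.1 and 0.536 in WT 1, 2 and 3, and the adaptor gene Grb2 had 23.4, 6.02 and 0.198 against 1.19, 6.80 and 4.33 (edgeR, adjusted p = 0.736, 0.754 and 0.779 for Socs3, Cish and Grb2). Kitl, which encodes the ligand of KIT, was at 2.27 or less in all 6 libraries.

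**Figure D4:**
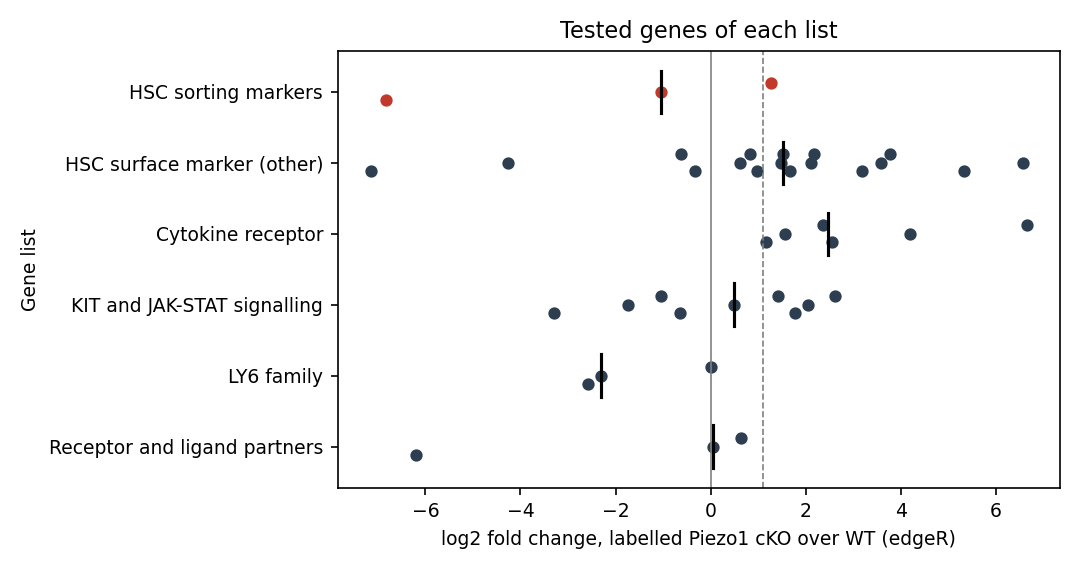
log2 fold changes (labelled Piezo1 cKO over WT, edgeR) of the tested genes of each list; each point is a gene, the black bar is the list's median, the solid line is 0 and the dashed line is the median of all tested genes, 1.10. The 3 tested sorting markers lie at -6.84, -1.04 and 1.28.

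Of 11 genes listed as receptor and ligand partners, among them those of PROCR and CD27, 10 were in the table and 3 passed the filter. Of these 3, 2 were positive, with a median of 0.05. Over all genes tested 67.9% were positive, with a median of 1.10. With edgeR 0 passed the threshold and 1, Crkl, had an unadjusted p under 0.05, in the lower direction. DESeq2 called 0 and gave no adjusted p to 2. Of all 4173 genes tested, 3.47% were lower at that edgeR p, and DESeq2 called 298. F2rl3, which encodes the thrombin receptor PAR4, had an FPKM of 27.6 in labelled cKO 2, the library with Procr, and was listed at 0 in the other 5. F2r, which encodes the thrombin receptor PAR1, had 0.317, 0.140 and 5.25 in labelled cKO 1, 2 and 3, against 0.452, 3.62 and 3.08 in WT 1, 2 and 3, with overlap. Siva1, whose product binds the tail of CD27, had 45.6, 125 and 210 in labelled cKO 1, 2 and 3, against 0.620, 336 and 1.53 in WT 1, 2 and 3. Crkl, an adaptor downstream of KIT, had 0.199, 2.86 and 0.0627 in labelled cKO 1, 2 and 3, against 237, 6.34 and 1.21 in WT 1, 2 and 3 (log2 fold change -6.20 ± 2.86, SE; edgeR, unadjusted p = 0.0303, adjusted p = 0.692).

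Markers of lineage-positive cells, which an HSC gate removes, were mixed. Itgam had an FPKM of at most 0.100, and Cd3e at most 0.0650, in all 6 libraries. Granulocyte and monocyte genes differed among themselves: Mmp8 reached at most 0.426 and Mmp9 at most 0.194. S100a8 had 625, 22024 and 2659 in labelled cKO 1, 2 and 3, against 14869, 251 and 212 in WT 1, 2 and 3. The 15 genes of that list summed to 849, 38802 and 5060 in labelled cKO 1, 2 and 3, against 29462, 829 and 735 in WT 1, 2 and 3. Their highest sum was in labelled cKO 2, the library with Procr, and the next in WT 1, the library with the highest Ly6a. The 9 B cell genes in the table summed to 0.842 to 157 in the labelled cKO libraries and 7.30 to 86.3 in WT. Vpreb3 made up most of the sum of labelled cKO 2, at 156, and Cd79b most of that of WT 2, at 85.8. The 11 T and NK cell genes summed to 1.22 to 184 in the labelled cKO and 45.0 to 862 in WT, the highest value in WT 2. Nkg7 made up nearly all of the WT 2 sum, and Lck most of the WT 1 and WT 3 sums. Apart from Nkg7 and Lck, no gene of that list was above 0.174 in WT 2. Nkg7, a granule protein gene of NK and cytotoxic T cells, had 0.446, 83.9 and 183 in labelled cKO 1, 2 and 3, against 1.71, 861 and 3.804 in WT 1, 2 and 3. Lck, a kinase of T cells, had 0.286, 0.0797 and 0.0762 in labelled cKO 1, 2 and 3, against 41.5, 0.973 and 96.5 in WT 1, 2 and 3. The 10 erythroid genes summed to 1618 to 2801 in the labelled cKO and 9916 to 21825 in WT, without overlap, and Hbb-bs and Hbb-bt were the highest genes of the list in every library. The 7 megakaryocyte genes summed to 28.9 to 294 in the labelled cKO and 16.4 to 1875 in WT. Different genes made up these sums. Itga2b, also on the list of other surface genes, gave most in labelled cKO 1 (177) and 3 (28.2), and Pf4 in WT 2 (1814.5). The 8 progenitor genes summed to 48.6 to 175 in the labelled cKO and 5.00 to 355 in WT, Cd48 included. The 10 endothelial and stromal genes summed to 1.09 to 3.19 in the labelled cKO and 6.74 to 15.4 in WT. These are sums of low values, and none of the genes reached an FPKM of 10 in any library. The part of other cells in the marker values was not tested. The 12 HSC transcription factor genes summed to 91.0 to 325 in the labelled cKO and 61.2 to 943 in WT.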

How the data were processed

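Libraries were made from 100 sorted cells each by template-switching cDNA synthesis and amplification, per the labels' protocols, without molecular identifiers. The submitters' processing notes name cutadapt 1.9, HISAT2 2.2.1, StringTie 2.1.6, DESeq2, edgeR and GRCm39 and give no role or order; no annotation release is stated there. The authors' deposited table has raw counts and, per the file headers, FPKM values scaled by the authors to length and depth. Of 19953 genes matched to GENCODE M21 (GRCm38), 17584 had the same start and end, as did all 8 markers, so coordinates are read as GRCm38.

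Genes with an FPKM of at least 1 in at least 3 of 6 libraries (4173) were tested across the table with edgeR 4.0.16 (quasi-likelihood, TMM, genotype only, R 4.3.3), adjusted by Benjamini-Hochberg at 0.05. The standard error is the log2 fold change over the square root of F. limma 3.58.1 on log2(FPKM + 1), DESeq2 1.42.0 (local dispersion fit), other filters, scalings, a pseudocount of 0.1, a replicate block and left-out libraries were alternatives. Single values had two-sided exact permutation tests of mean log2(FPKM + 1). In simulated counts over 4173 genes, edgeR recovered 100% of genes changed 4-fold, 16-fold and 64-fold at a low spread (3 to 9 false calls). It recovered 0% at the common spread estimated from these libraries, given alike to every gene.

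The markers and lists were chosen with earlier results of these data known. Named by rule were all markers, up to 3 genes per related list with the smallest p, and the 3 genes most like each tested marker at a mean FPKM of at least 5; other genes named were chosen after their values were seen. Promoter sequences are RefSeq's (GRCm38.p6). Results on some genes are not reported here.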

Additional observations from a re-analysis of the deposited data

How the results depend on the processing

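No marker passed an adjusted p of 0.05 in any fit. Cd48 stayed lower in the labelled cKO in all 14 alternatives, with log2 fold changes between -8.49 and -2.66 (adjusted p from 0.278 to 1.000), and DESeq2 gave it no p. Its genotypes do not overlap, so leaving out libraries could hardly turn that sign. Its unadjusted p was not under 0.05 with no filter, at a mean FPKM of at least 5, with the replicate block, without WT 2, or with no filter and the replicate block (0 markers in each), against 1 marker in the fit as designed. Markers at that p numbered 0 to 1 when single libraries were left out.

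Ly6a turned to 0.17 with no filter and ranged from -1.91 to 0.83 without single libraries. Slamf1 turned to -0.64 without WT 1 and WT 3 and ranged from -0.43 to 6.79 without single libraries. On the log2(FPKM + 1) scale, the difference for Slamf1 turned to -1.84 and that for Cd27 to -3.41 without WT 1 and WT 3 (added after seeing the data). Kit turned to -0.05 with a pseudocount of 0.1. Leaving out single libraries gave -0.98 to 1.97 for Kit, -0.90 to 2.03 for Procr, -2.0 to 0.20 for Ly6a and -1.71 to 2.05 for Cd27. The cause of these turns was not tested, but each leaves fewer samples or changes the weight of low values. Cd34, Esam and Cd48 kept their sign in all 8 alternatives on that scale. Their genotypes do not overlap, so leaving out libraries or changing the pseudocount could not turn it, and the kept sign is no support. Without single libraries, 3 to 4 markers had no overlap. Leaving out a library cannot create overlap, so that number could not fall below 3.

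Genes called over the whole table were 0 in the fit as designed, 163 with no filter, 2 at a mean FPKM of at least 5, 298 with DESeq2 and 1 without WT 1 and WT 3. With the replicate block, Cd48 had a log2 fold change of -4.60, Slamf1 of 0.90 and Ly6a of -0.04. Same-numbered libraries had correlations of deviations of 0.126, 0.151 and -0.155, and different-numbered ones -0.273 to 0.215. With 3 libraries per genotype, these values cannot decide whether the numbers pair the samples. The depth of WT 3, at 3907259 counts, limits values on a few counts.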
